A study of Mus musculus with 3 samples.

Results

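Complement genes of the skin stroma were described across cell types in mouse dorsal skin. The set held 9 of the 32285 genes in the count matrices, taken by name: C3, C4b, C2, Cfb, C1ra, C1s1, C6, C7 and Serping1. All 9 were found under these symbols, and all 9 passed the minimum of 10 CPM (counts scaled to a fixed library total) used for fibroblasts below.

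Full-thickness dorsal skin of wild type C57BL/6J mice, described as female, was dissociated and profiled with a droplet-based 3' single-cell kit in 3 libraries. The stated age of 8 weeks is that of the mice as purchased, before the 12 weeks of irradiation. The age at sampling is not given. CON was the control library without irradiation. UV came from skin exposed for 12 weeks, every other day, to mixed UVA (0.6 mW/cm2) and UVB (3.5 mW/cm2), and Rux from skin that received in addition a 1.5% ointment of ruxolitinib, an inhibitor of the kinases JAK1 and JAK2, right after irradiation. The ruxolitinib was dissolved in DMSO and mixed into Aquaphor, and the study describes CON and UV as groups that received the vehicle. The number of mice in a library is not given in the sources used here. Skin was taken 24 h after the last exposure.

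Each condition had 1 library, so the differences below have no replicate check and carry no p-value. Error ranges are exact 95% counting intervals, Poisson for sums of UMIs and Clopper-Pearson for shares of cells, and leave out any spread between animals. Intervals of UMI sums and of their ratios count each UMI as independent. They therefore also leave out spread between cells and can be too narrow. The label of sex did not match the data: Xist lay between 0.0912 and 0.118 CPM and the Y-linked gene Ddx3y between 110.4 and 121 CPM in the 3 libraries. Between 28 and 50 cell barcodes were shared by a pair of libraries, at most 0.403% of either.

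Complement is a cascade of plasma and tissue proteins that marks surfaces for removal and recruits immune cells. The classical pathway starts when C1q binds a surface. Its protease C1r then activates the protease C1s, which cleaves C4 and C2. The alternative pathway is carried by factor B. Both build enzymes that cleave C3, and the late components from C6 onward join into the membrane attack complex. C1 inhibitor, the product of Serping1, blocks C1r and C1s. Much of the circulating protein is made in the liver, and fibroblasts are a known local source.

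The matrices held unnormalized UMI counts, where a UMI is a tag that marks 1 captured transcript, for 13170 cells in CON, 12411 in UV and 11287 in Rux. After filtering, 10885, 10327 and 9386 cells remained, with a median of 7567, 7664 and 9443 UMIs. Clusters were named from marker genes as fibroblast-like (FB-like) and so on, and unnamed clusters held 25.3% of CON, 14.4% of UV and 9.34% of Rux cells. FB-like cells numbered 3997, 5693 and 5525, with a median of 5688 UMIs in CON, 6877 in UV and 9458 in Rux. All 6 fibroblast markers were detected in them, with a summed level of 32668 CPM in CON, 25968 in UV and 25722 in Rux. The summed level of the 6 lymphocyte markers there was at most 2.19 CPM, and that of the 6 myeloid markers lay between 19.3 and 34.6 CPM.

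Promoters are shown for C3, the member with the largest log2 ratio between UV and CON, for C1ra, a protease of the classical pathway, and for C7, whose fibroblast level was nearly equal in those libraries. They are RefSeq promoters of GRCm38.p6 from 250 bases before to 50 after the RefSeq start, and 5 of the 9 members (C3, C1ra, C1s1, C6 and C7) had an entry. The RefSeq start can differ from the gene start in GENCODE. For C1ra, which begins at chr6:124512405 in GENCODE, most of the window lies inside the gene. Capitals mark matches to the motifs searched on both strands, which were STAT (TTCNNNGAA), the interferon-stimulated element, C/EBP (TTGCNNAA), NF-kB and AP-1 (TGANTCA). The C3 window lies at chr17:57228087-57228386 on the minus strand, the C1ra window at chr6:124512371-124512670 on the plus strand, and the C7 window at chr15:5063724-5064023 on the minus strand.
C3: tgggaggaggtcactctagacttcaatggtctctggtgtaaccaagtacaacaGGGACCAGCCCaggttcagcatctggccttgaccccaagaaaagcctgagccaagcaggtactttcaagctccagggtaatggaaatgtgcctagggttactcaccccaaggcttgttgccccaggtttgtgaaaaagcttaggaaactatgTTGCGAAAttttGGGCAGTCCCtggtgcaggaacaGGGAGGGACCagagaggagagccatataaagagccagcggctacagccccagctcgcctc
C1ra: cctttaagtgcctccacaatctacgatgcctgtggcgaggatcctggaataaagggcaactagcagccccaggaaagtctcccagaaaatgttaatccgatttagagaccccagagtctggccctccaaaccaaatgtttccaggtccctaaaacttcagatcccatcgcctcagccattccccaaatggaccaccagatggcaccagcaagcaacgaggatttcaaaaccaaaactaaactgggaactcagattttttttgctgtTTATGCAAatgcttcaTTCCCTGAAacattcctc
C7: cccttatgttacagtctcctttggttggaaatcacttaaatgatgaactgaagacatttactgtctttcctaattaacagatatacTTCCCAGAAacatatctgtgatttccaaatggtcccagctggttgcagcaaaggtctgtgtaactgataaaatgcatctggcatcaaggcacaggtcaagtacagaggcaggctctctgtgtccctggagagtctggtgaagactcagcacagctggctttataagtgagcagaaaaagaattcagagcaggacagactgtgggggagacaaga

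The C3 window held 1 C/EBP match, 45 bases before the start, and 4 NF-kB matches, of which a pair overlap. The C1ra window held 1 STAT match, 32 bases after the RefSeq start, and 1 C/EBP match. The C7 window held 1 STAT match, 164 bases before the start, and the C6 window held none of the 5 motifs. Of 32851 promoters of this length, 8.30% held the STAT motif, 3.44% the interferon-stimulated element, 10.8% C/EBP, 50.8% NF-kB and 7.81% AP-1. A match is a description of letters in this window. In GRCm38, Cfb (chr17:34856374-34862518), C2 (chr17:34862604-34898265) and C4b (chr17:34728380-34743882) are protein-coding genes of the same stretch on the minus strand. C1ra (chr6:124512405-124523443) and C1s1 (chr6:124530345-124542359) are neighbours, as are C6 and C7 on chromosome 15.

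FB-like cells carried most of the transcripts of each member. They held 91.5% of all C3 UMIs in CON, 96.3% in UV and 97.1% in Rux. For C4b the shares were 91.5%, 95.7% and 97.3%, and for C7 they were 96.2%, 97.3% and 98.7%. The smallest fibroblast shares belonged to C2, with 69.4%, 86.1% and 90.8%, and to Cfb, with 77.3%, 91.3% and 95.1%. These shares rest in part on the number of FB-like cells, which made up 36.7% of CON, 55.1% of UV and 58.9% of Rux cells.

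Lymphocyte-like (LYM-like) cells, which should lack these genes, gave the level of background. There C3 stood at 15.1 CPM in CON, 63.5 in UV and 39.5 in Rux, C4b at 10.1, 31.1 and 30.3 CPM, and Serping1 at 42.8, 57.0 and 44.8 CPM. The background of C3 thus differed between libraries in the same order as its level in FB-like cells. Keratinocyte-like cells of the basal layer and hair-follicle-like cells held at most 28.8 CPM of C3. Cells were also thinned to 2000 UMIs, and those with fewer were left out (369 FB-like cells in CON, 589 in UV and 369 in Rux). C3 was then seen in 56.3% (54.6% to 57.9%) of FB-like cells in CON, 73.9% (72.7% to 75.1%) in UV and 70.2% (68.9% to 71.4%) in Rux. The same share in LYM-like cells was 3.66%, 11.3% and 6.94%. Without thinning the FB-like shares were 68.4%, 82.6% and 83.6%, at the median depths above, and the LYM-like shares 7.81%, 26.1% and 19.9% at median depths of 5427, 5417 and 5607 UMIs.

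Outside fibroblasts the members parted by cell class. Serping1 was also high in pericyte-like cells, with 560.4 CPM in CON, 574 in UV and 771 in Rux, and C1s1 stood there at 304, 346 and 457 CPM. Cfb, a protease of the alternative pathway, had 68.3, 54.7 and 73.7 CPM in lymphatic endothelial-like cells. In vascular endothelial-like cells it had 67.8, 49.7 and 53.1 CPM, against at most 7.46 CPM in LYM-like cells. The Cfb intervals of these endothelial classes overlapped in all 3 libraries. C3 in lymphatic endothelial-like cells stood at 89.1 CPM in CON, 118 in UV and 194 in Rux. In myeloid-like cells C3 had 109, 180 and 151 CPM. Neutrophil-like cells had 203 CPM of C3 in CON, from 26 UMIs, and 213 in Rux, from 160 UMIs, with only 21 such cells in UV.

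C2, which the classical pathway cleaves together with C4, was also present in melanocyte-like cells, at 133 CPM in CON and 126 in UV. These values were close to the 114 and 135 CPM of FB-like cells, and the intervals overlapped in UV. In CON the melanocyte-like interval (122 to 144 CPM) lay above that of FB-like cells (109.7 to 118 CPM). Melanocyte-like cells held 14.4% of all C2 UMIs in CON and 2.42% in UV, with 163 and 67 cells, and the 39 such cells of Rux were under the minimum of 50. Mast-cell-like cells stood at 90.9 CPM of C2 in UV and 88.4 in Rux, from 39 and 56 UMIs, and in Rux this was above the 81.6 CPM of FB-like cells with overlapping intervals, while LYM-like cells lay between 2.59 and 4.39 CPM. C4b was seen in Schwann-cell-like cells at 242, 319 and 346 CPM.

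In myeloid-like (MYE-like) cells C4b stood at 197 CPM (174 to 222) in CON, 109.6 (92.0 to 129) in UV and 58.7 (50.8 to 67.6) in Rux, so the intervals did not overlap. The log2 ratio of UV over CON was −0.84 (−1.15 to −0.54) there and 0.82 (0.79 to 0.84) in FB-like cells. C6 had 31 UMIs in MYE-like cells of CON (23.4 CPM), 20 in UV (15.9 CPM) and 7 in Rux (2.12 CPM), and LYM-like cells of CON had 0. C1qa, a subunit of C1q that is itself among the markers of this class, stood there at 757, 768 and 581 CPM. The summed level of the 6 fibroblast markers in MYE-like cells was 846 CPM in CON, 667 in UV and 558 in Rux, and its part in these values was not tested.

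**Figure D1:**
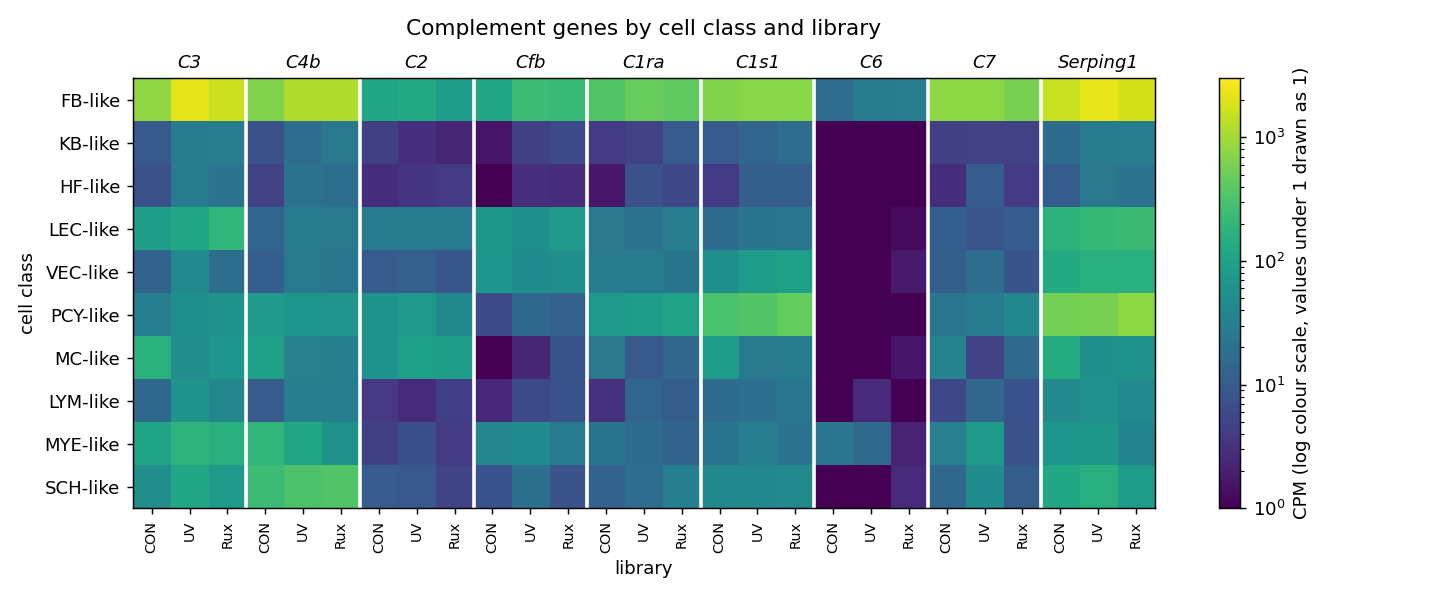
Level of each member (CPM, log colour scale, values under 1 drawn as 1) in the 10 cell classes with at least 50 cells in every library. FB-like cells are the brightest row for each gene apart from C6, which is at a similar level in MYE-like cells of CON, and C2 in Rux, where mast-cell-like (MC) cells stand at 88.4 CPM beside 81.6 with overlapping intervals. Serping1 and C1s1 are also bright in pericyte-like (PCY) cells.

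In FB-like cells C3 stood apart. It had 799.6 CPM (789 to 811) in CON, 2192 (2178 to 2207) in UV and 1609 (1599 to 1619) in Rux. UV was the highest library and Rux lay between the others. The log2 ratio was 1.46 (1.43 to 1.48) for UV over CON and −0.45 (−0.46 to −0.43) for Rux over UV. In LYM-like cells the log2 ratio of C3 for UV over CON was 2.05 (1.42 to 2.78), and the part of free RNA in the fibroblast values was not tested. The level in FB-like cells was above that of LYM-like cells by a log2 ratio of 5.70 in CON, 5.10 in UV and 5.34 in Rux.

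C4b and Cfb were also higher in UV than in CON, and their Rux levels lay close to those of UV. C4b stood at 666 CPM in CON, 1172 in UV and 1166 in Rux, and the UV and Rux intervals overlapped (1162 to 1183 against 1157 to 1175). Cfb stood at 122 CPM in CON, 241 (237 to 246) in UV and 223 (219 to 227) in Rux. The log2 ratio of Cfb was 0.98 (0.92 to 1.04) for UV over CON and −0.11 (−0.15 to −0.07) for Rux over UV. A subcluster led by Saa3, described below, held 5822 of the 12886 Cfb UMIs of Rux. Without it the ratio of Cfb for Rux over UV was −0.78. C2 followed another order, with 114 CPM (109.7 to 118) in CON, 135 (132 to 139) in UV and 81.6 (79.3 to 84.0) in Rux, the lowest of the 3. Its log2 ratio was 0.25 (0.18 to 0.31) for UV over CON and −0.73 (−0.78 to −0.67) for Rux over UV.

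The proteases of the C1 complex moved less. C1ra had 336 CPM in CON, 473 in UV and 418 in Rux, with a log2 ratio of 0.49 (0.45 to 0.53) and then −0.18 (−0.20 to −0.15). C1s1, its partner, had 661, 732 and 719 CPM, and its log2 ratio of 0.15 (0.12 to 0.17) for UV over CON was well under 1.5-fold. Serping1, whose product inhibits both, stood at 1532 CPM in CON, 2243 in UV and 1779 in Rux. Its log2 ratio was 0.55 (0.53 to 0.57) for UV over CON and −0.33 (−0.35 to −0.32) for Rux over UV.

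The late components differed from each other. C6 was low, with 17.7 CPM (16.1 to 19.5) in CON, 26.2 (24.6 to 27.8) in UV and 29.9 (28.5 to 31.4) in Rux. C7, which joins the membrane attack complex after C6, had 767 CPM (756 to 778) in CON, 771 (763 to 780) in UV and 583 (577 to 590) in Rux. The CON and UV intervals of C7 overlapped, and its log2 ratio for Rux over UV was −0.40 (−0.43 to −0.38).

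Of the 9 members, 3 (C3, C4b and Cfb) were at least 1.5-fold higher in UV than in CON, where 6.23% of the 8363 genes averaging 10 CPM or more were, and 0 were at least 1.5-fold lower, where 8.04% of genes were. Between Rux and UV, 0 members were at least 1.5-fold higher, where 3.24% of 8159 genes were, and C2 was lower, where 5.07% were. The median log2 ratio of the members was 0.55 for UV over CON beside −0.10 over all genes, and −0.18 for Rux over UV beside 0.03. All 9 members lay above the all-gene median in the first contrast, and 1, C6, in the second. The contrasts share the UV library, so the level in UV enters the first as numerator and the second as denominator. Against CON, Rux had 4 members at least 1.5-fold higher (C3, C4b, Cfb and C6), where 7.33% of 8334 genes were, and 0 lower, where 9.78% were. The log2 ratios of Rux over CON were 1.01 for C3, 0.81 for C4b, 0.87 for Cfb and 0.75 for C6, and the members below 0 were C2 at −0.48 and C7 at −0.39. Under median-of-ratios scaling 5 members were at least 1.5-fold higher in UV than in CON, beside 8.05% of all genes.

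**Figure D2:**
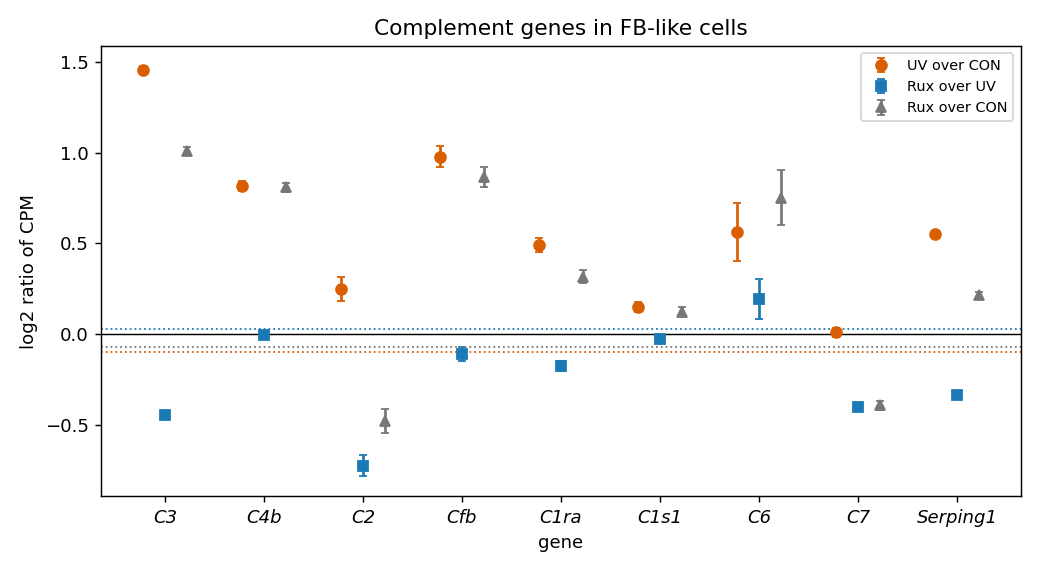
Log2 ratio of CPM in FB-like cells for each member, UV over CON (circles), Rux over UV (squares) and Rux over CON (triangles), with exact 95% counting intervals and the median of all genes as dotted lines. C3 has the highest circle at 1.46 and C2 the lowest square at −0.73.

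FB-like cells were clustered again without complement genes among the variable genes, which gave 16 subclusters, called here by their leading genes. C3 was highest in UV and Rux in the Krt23-led subcluster, at 2243 CPM in CON, 4356 in UV and 3486 in Rux, and high in the subclusters led by Csf2rb2 (2318, 3623 and 2679.7 CPM) and Rasgef1c (2034, 3554 and 3306 CPM). It was lowest in the subcluster led by Ednrb and Acta2, at 35.8, 68.4 and 92.7 CPM, in that led by Grem1, at 65.8, 104 and 148 CPM, and in that led by Coch, at 75.6 CPM in UV and 40.7 in Rux. The C3 range over fibroblast subclusters within UV was thus wider than its range over the 3 libraries of all FB-like cells.

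Other members peaked in other subclusters. C7 was highest in the Spag17-led subcluster, at 2486 CPM in CON, 2269 in UV and 1918 in Rux, and stood at 388, 188 and 210.0 CPM in the Krt23-led subcluster. C6 was highest in the Ryr2-led subcluster, at 114, 65.6 and 76.3 CPM, and had 0 UMIs in the Coch-led subcluster of UV and Rux. C4b peaked in the Csf2rb2-led subcluster, at 2077, 2637 and 2602 CPM. C2 peaked, at 536, 696 and 449 CPM, in a subcluster led by the immunoglobulin gene Igkc whose median depth was 2635, 2161 and 2208 UMIs, below that of all FB-like cells. Serping1 was highest there too, at 3003, 3555 and 3073 CPM, and the part of depth and immunoglobulin RNA in these levels was not tested.

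Cfb had its highest value, 794 CPM, in a subcluster led by Saa3, Reg1 and Hp, of which Saa3 and Hp are acute-phase genes. That subcluster held 0 of 3997 FB-like cells in CON, 11 in UV and 418, or 7.57% (6.88% to 8.29%), in Rux. A count of 0 in CON allows a share of up to 0.0751% by the limit of 3 cells. Without this subcluster the log2 ratio of Cfb for Rux over UV was −0.78, and 2 members were at least 1.5-fold lower in Rux, beside 4.90% of all genes. Cfb was lower in Rux than in UV in 9 of the 13 subclusters with at least 50 cells in both, with 8 intervals below 0.

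**Figure D3:**
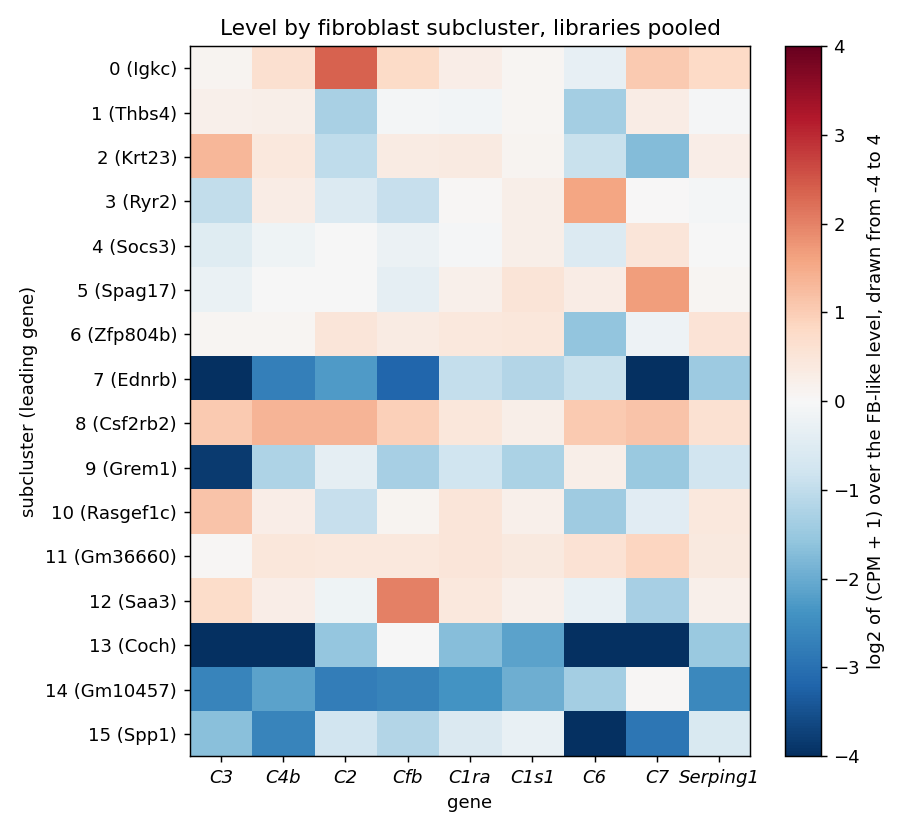
Level of each member in the 16 fibroblast subclusters with the libraries pooled, as log2 of (CPM + 1) over the mean FB-like level of the 3 libraries, with colours limited to −4 and 4. C3, C4b, Cfb and C7 are low in the Ednrb-led subcluster, C6 is highest in the Ryr2-led, C7 in the Spag17-led, C2 in the Igkc-led and Cfb in the Saa3-led subcluster.

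Within subclusters, C3 was higher in UV than in CON in 11 of the 11 that had at least 50 cells in both libraries, and every interval lay above 0. Of all 8363 genes, 1.66% were higher in 11 of 11, and 0.239% with every interval above 0. Genes with fewer UMIs than C3 have wider intervals, so the latter share depends in part on level. Among subclusters under 50 cells in a library, C3 was lower in UV in the Coch-led one (112 CPM in CON, 75.6 in UV). It was also lower in the Gm36660-led one (3232 CPM from 3 cells, and 1539). It was higher in those led by Gm10457 (223 and 335 CPM) and Spp1 (316 and 442 CPM). These intervals overlapped except for the Gm36660-led one. At a resolution of 0.3 C3 was higher in UV in 8 of 8 subclusters, and at 0.8 in 11 of 12. The C3 level of LYM-like cells was also higher in UV (63.5 CPM, 51.5 to 77.4) than in CON (15.1 CPM), and in UV the Ednrb-led subcluster, at 68.4 CPM (58.5 to 79.5), overlapped that background. The Grem1-led subcluster, at 65.8 CPM in CON and 104 in UV, differed between the libraries by less CPM than that background did, and the part of free RNA in both was not tested. The log2 ratios of C3 in the 11 subclusters ran from 0.22 to 1.12 with a median of 0.80, below the 1.46 of all FB-like cells. Serping1 and C1ra were also higher in 11 of 11, with medians of 0.39 and 0.26 and with intervals above 0 in 11 and 9. C4b and Cfb were higher in 10 of 11, with medians of 0.54 and 0.75 and with intervals above 0 in 8 and 10. The exception for C4b and for Cfb was the Grem1-led subcluster. C2 was higher in 6, with 4 intervals above 0, and lower in 5, with 0 intervals below 0. C7 was higher in 7, with 6 intervals above 0, and lower in 4, with 3 below, and among the lower were the Krt23-led and Rasgef1c-led subclusters. C6 was higher in 8, with 5 intervals above 0, and lower in 3, with 1 below, that of the Ryr2-led subcluster where its level peaked.

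The make-up of the FB-like class moved with these ratios. The Socs3-led subcluster, with 906 CPM of C3 in CON, held 29.1% of FB-like cells in CON, 4.55% in UV and 0.452% in Rux, while the Krt23-led subcluster held 4.53%, 17.9% and 8.83%. The Ednrb-led subcluster held 3.50%, 3.58% and 12.1%, and the Ryr2-led subcluster, where C6 peaked, 3.33%, 12.5% and 13.4%. With the subclusters weighted as in CON the log2 ratio of C3 was 0.85 for UV over CON and 0.04 for Rux over UV, and that of C4b was 0.58 and 0.42. In that weighting the Socs3-led subcluster of Rux rested on 25 cells. The Saa3-led subcluster, with 0 cells in CON and 418 in Rux, had no weight in it.

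Between Rux and UV the members differed in direction within subclusters. C1s1 was higher in Rux in 13 of 13 subclusters with a median of 0.12, as were 2.19% of 8159 genes, but 9 of its 13 intervals lay above 0 and over all FB-like cells its log2 ratio was −0.025 (−0.047 to −0.0038). C4b was higher in 11 of 13 with a median of 0.36 and 10 intervals above 0. C2 was lower in 11 of 13 with a median of −0.34 and 7 intervals below 0. C3 was higher in 7 and lower in 6, with 6 intervals above 0 and 5 below, and among the latter were its 3 highest subclusters, led by Krt23, Csf2rb2 and Rasgef1c. The lower C3 level of all FB-like cells in Rux was therefore not found in every subcluster.

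In the Ednrb-led subcluster all 9 members lay below the level of all FB-like cells with libraries pooled. The same held for the Coch-led and Spp1-led subclusters. Cfb of the Coch-led subcluster was close, at 194 CPM beside a mean of 196 CPM over the 3 FB-like libraries. The share of all genes below the FB-like level in these subclusters is not given. The Ednrb-led subcluster had its lowest value in CON and its highest in Rux for each member. The share of all genes in that order is not given. The intervals of CON and UV overlapped there for C2 and C6, and those of UV and Rux for C6 and C7. In CON and in UV the intervals of Cfb and C6 there also overlapped those of LYM-like cells, as did that of C3 in UV. C1ra stood there at 75.8, 155 and 256 CPM, C1s1 at 112, 234 and 377 CPM, and Serping1 at 214, 573 and 819 CPM. Its share of FB-like cells was highest in Rux.

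**Figure D4:**
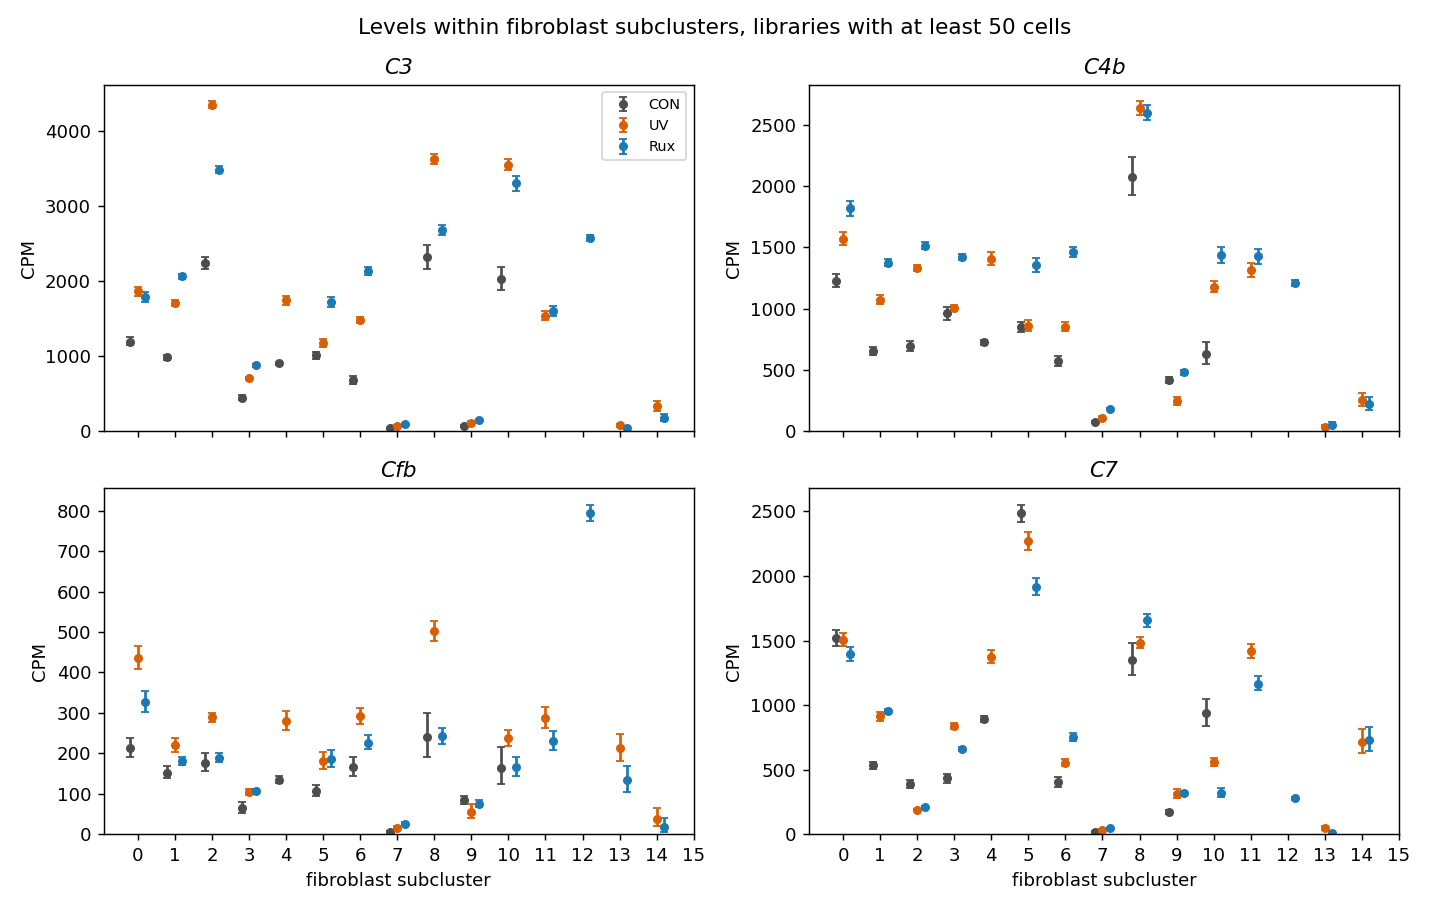
Level (CPM) of C3, C4b, Cfb and C7 in each fibroblast subcluster and library with at least 50 cells, with exact 95% Poisson intervals. Subclusters are numbered by size, with 0 led by Igkc, 2 by Krt23, 5 by Spag17, 7 by Ednrb, 8 by Csf2rb2 and 12 by Saa3. The UV points of C3 lie above the CON points in all 11 subclusters that have both, and Cfb of the Saa3-led subcluster stands alone at 794 CPM in Rux.

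Across 39 profiles of subcluster and library, which share libraries and differ in depth, the members varied together to unequal degrees. Pearson's r of log2(CPM + 1) was highest for C1ra with Serping1 (0.96) and C1ra with C1s1 (0.93), and lowest for Cfb with C6 (0.09). Among 8303 genes the profile most like that of C3 was Plac8 (r = 0.94), followed by Lgi2 (0.91) and Trf (0.90), and the most like C4b was Ace (0.94). C7 lay closest to Plcxd3 (0.92), Serping1 to Ctsl (0.97), C1ra to Ly6c1 (0.96), C1s1 to Gstm1 (0.95) and Cfb to Ctsl (0.88). C6 had no profile above 0.74, that of Gxylt2. These values describe likeness of pattern over points that are not independent.

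Of 47 further complement genes, 8 reached 10 CPM in FB-like cells, of which 4 were at least 1.5-fold higher in UV than in CON and 0 lower, beside the 6.23% and 8.04% of all genes. Among regulators, Cd55, which speeds the decay of the C3-cleaving enzymes, stood at 163, 296 and 285 CPM. Clu, a fluid-phase inhibitor of the membrane attack complex, had 22.0, 52.3 and 32.6 CPM, and Vtn, another, 9.36, 15.7 and 10.1 CPM. Csmd1, a membrane regulator, had 201, 338 and 194 CPM. These last 3 genes were at least 1.5-fold lower in Rux than in UV, beside 5.07% of all genes. Masp1, a protease of the lectin pathway, had 36.4, 39.2 and 71.0 CPM and was the 1 gene at least 1.5-fold higher in Rux than in UV. Colec12 and Cr1l stood at 116 to 129 and at 52.4 to 62.2 CPM. Some of these genes were higher in other classes. Csmd1 had 2226, 1997 and 2466 CPM in Schwann-cell-like cells, and Cd55 had 783, 713 and 913 CPM in mast-cell-like cells.

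The subunits of C1q were nearly absent from fibroblasts, with C1qa, C1qb and C1qc between 0.485 and 2.08 CPM in FB-like cells. In MYE-like cells C1qb stood at 892, 809.8 and 658 CPM and C1qc at 461, 522 and 356 CPM. C1q and its proteases C1ra and C1s1 thus had their highest levels in different cell classes.

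Close copies could take reads from some members. In the last 500 transcript bases, 20.2% of 90-base windows of C4b also occurred in C4a, 11.2% of those of C1ra in C1rb, and 2.68% of those of C1s1 in C1s2. In FB-like cells C4a lay between 1.18 and 2.69 CPM, C1rb between 0.196 and 0.572 CPM, and C1s2 between 0.588 and 1.54 CPM. C4b, C1ra and C1s1 are uncertain to that extent.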

How the data were processed

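Full-thickness dorsal skin was profiled in 3 droplet libraries (CON, UV, Rux), grouped by the treatment in the labels. The deposited matrices hold raw UMI counts per gene and cell that the authors made with Cell Ranger against mm10, version 6.1.2 in the submitters' notes and 7.0.0 in the matrix headers, with no normalization. Cells passed with 200 or more genes and no more than 10% of UMIs from mitochondria, and 3029 cells with the highest Scrublet doublet scores (scanpy 1.11.5, Python 3.11.15) were removed. Total UMIs were 165337289, 133972374 and 131570327.

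Seurat 5.3.0 (R 4.3.3) clustered all cells on 2000 variable genes, 30 principal components and a resolution of 1.5, and FB-like cells again on 20 components at 0.5. Complement genes were left out of the variable genes, where 12 would have entered. A cluster took a name from at least 3 detected markers that led those of other lineages. Clusters led by adipocyte or immunoglobulin genes were left unnamed by a check added after their leading genes were seen. UMIs were summed per class and library, scaled to CPM, and compared as log2 ratios with 0.5 UMI added. With 1 library per group no test was made. Shares of cells were also computed after thinning to 2000 UMIs, without the cells that had fewer. The computation was tested on simulated data. Genes named are the 9 members, wider complement genes averaging 50 CPM or more, or 10 CPM and past 1.5-fold, C1q subunits and close copies, the genes most like each member, subcluster-leading genes and markers. A gene that this rule names is not reported here. The members and lists were chosen with earlier results of these data known. Other tools were pandas 2.3.3, numpy 2.4.6, matplotlib 3.10.9 and scipy 1.17.1. Coordinates came from GENCODE on GRCm38. The alternatives were other cell filters, no doublet removal, other resolutions, complement genes allowed in clustering, other scalings and weights, and no minimum level.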

Additional observations from a re-analysis of the deposited data

Results flagged for a closer look

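C4b differed in direction between cell classes. Its log2 ratio for UV over CON was −0.84 in MYE-like cells (138 UMIs in UV and 261 in CON) and 0.82 in FB-like cells. With 1 library per group, the difference was not tested. The share of MYE-like cells with C4b was 36.4% in CON and 34.2% in UV, and 23.1% and 17.4% after thinning, with overlapping intervals both times.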

How the results depend on the processing

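No paired analysis was possible because each group had 1 library. The number of members at least 1.5-fold higher in UV than in CON, 3, was 5 under median-of-ratios scaling (8.05% of all genes, from 6.23%), and the number lower in Rux than in UV, 1, was 0 with subclusters weighted as in CON, as in CON without subclusters under 50 cells in a library, and as in UV without them (5.82%, 4.21% and 4.87% of all genes, from 5.07%), and 2 without the Saa3-led subcluster (4.90%). The median of UV over CON, 0.55, was 0.49 with the strict filter, 0.47 with the loose filter, 0.53 at resolution 0.8, 0.52 with complement genes allowed in clustering, 0.64 under median-of-ratios scaling, 0.48 with equal weight per cell, and 0.39, 0.26 and 0.32 under the 3 weightings of subclusters. The median of Rux over UV, −0.18, was −0.21 under median-of-ratios scaling, −0.23 with equal weight per cell, 0.048, 0.049 and −0.10 under the weightings, and −0.30 without the Saa3-led subcluster. The weightings change the shares of subclusters, and those without subclusters under 50 cells also leave cells out. The weighting as in CON likewise gives no weight to the Saa3-led subcluster, which held 0 cells in CON. The cause of the other shifts was not tested. The weightings without subclusters under 50 cells and the settings without the Saa3-led subcluster or the low-UMI cluster were chosen after seeing the data.

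For UV over CON, 7 of the 9 members kept their direction under all 13 alternatives, with C3 between 0.79 and 1.68, C4b between 0.33 and 0.94 and Cfb between 0.65 and 1.07. C7 changed sign in 2 and C6 in 1. For Rux over UV, C2, Cfb, C7 and C6 kept their direction, and C3, C4b, C1ra, C1s1 and Serping1 changed sign in at least 1. Depth limits C6 and all classes but FB-like.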
